A study of Rattus norvegicus with 8 samples.

Results

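MiR-21 and miR-21* (rno-miR-21 and rno-miR-21* on the array) are the mature RNAs cut from the 5′ and the 3′ arm of the hairpin of 1 microRNA gene, Mir21. The members described here were the non-control features of the array that carry either name, 2 of the 677 rat microRNAs (miRNAs) on the array. MiRNAs are short RNAs that pair with messenger RNAs, mainly through a seed near their 5′ end, and lower their stability and translation. MiR-21 is the arm that is kept in most tissues, where it is among the abundant miRNAs, and it is known for repressing the tumour suppressor Pdcd4. In islets it is known to increase under inflammatory cytokines. It is also high in immune cells and in activated fibroblasts, and its partner arm miR-21* is mostly degraded.

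Levels were measured in pancreatic islets, the endocrine clusters of the pancreas, from Sprague Dawley rats. The adult group held islets of 3-month-old males on 4 arrays, and the P10 group held islets of 10-day-old rats on 4 arrays. The labels call the rats of both ages controls and the arrays biological replicates. The number of rats behind an array is not stated, so the p-values measure the spread between these samples only. The sex of the P10 rats is not given in the labels, so a difference in sex cannot be told apart from age. The series title names beta-cell maturation as the subject.

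The sequences are shown because both arms come from the same hairpin, yet the arrays measured them very differently. They are those of RefSeq on the rat assembly GRCr8, matched by name, with miR-21 as the 5p arm and miR-21* as the 3p arm. In the mature RNAs the capitals mark the seed, bases 2 to 8, and in the hairpin they mark the arms.
miR-21 (chr10:71902653-71902674, minus strand): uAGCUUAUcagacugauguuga
miR-21* (chr10:71902615-71902636, minus strand): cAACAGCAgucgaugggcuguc
Mir21 hairpin (chr10:71902600-71902691, minus strand): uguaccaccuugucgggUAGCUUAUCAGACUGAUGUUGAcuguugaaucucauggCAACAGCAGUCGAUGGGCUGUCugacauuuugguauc
Both arms are 22 bases long, and 16 bases lie between them in the hairpin of 92 bases. In the structure predicted for the hairpin alone, 19 bases of one arm paired with the other. The gene lies 531 bases beyond the annotated end of Vmp1, a gene of autophagy on the same strand. None of the 724 mature rat miRNAs of the RefSeq table shared the seed of miR-21 or that of miR-21*, apart from the arms themselves. The search covers only that table. MiR-590 was expected to share the seed of miR-21, and no miR-590 name was on the array.

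All 8 arrays lay on 1 slide and carried the same scan date. Adult arrays lay in slide column 1 and P10 arrays in column 2, and column cannot be told apart from age. Array brightness, as the 75th percentile of 278 probes that cleared background everywhere, was 1284 to 1677 on the adult arrays and 388 to 1690 on the P10 arrays, where replicates 1 and 2 were the dimmest. The islet miRNA miR-375 was well above background on all 8 arrays and ranked between 6 and 8 on adult arrays and between 2 and 9 on P10 arrays, where rank 1 is the brightest miRNA of an array. MiR-7a, also known from islets, ranked first on every adult array, and 1 to 18 on the P10 arrays.

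The 2 arms were detected to very different extents. MiR-21 was measured by 2 probes with 10 features each, and all 160 of these features over the 8 arrays were well above background. The mean signal of its brighter probe was 5621, 8147, 9283 and 4147 on adult replicates 1 to 4, against 2422, 2145, 7702 and 8226 on P10 replicates 1 to 4. These unscaled signals follow the overall brightness of the arrays on P10 replicates 1 and 2. Features of 1 probe on 1 array varied by 2.41% to 10.9% (coefficient of variation over both probes), so reading error within an array was small.

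MiR-21* was at background on every array, adult and P10. Its 4 probes had 5 features each. Of 160 features over the 8 arrays, 1 carried the call of being well above background, on adult replicate 3, and that feature was also marked as an outlier. The probe means of miR-21* lay between -8.94 and 5.70 intensity units after background subtraction. The lowest probe signal well above background was 19.3, 35.3, 19.7 and 24.8 on adult replicates 1 to 4, against 22.5, 22.7, 17.7 and 36 on P10 replicates 1 to 4. No level, fold or rank of miR-21* is therefore given, and whether the arms changed unequally with age could not be tested. A signal below this limit does not show that the RNA is absent.

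**Figure D1:**
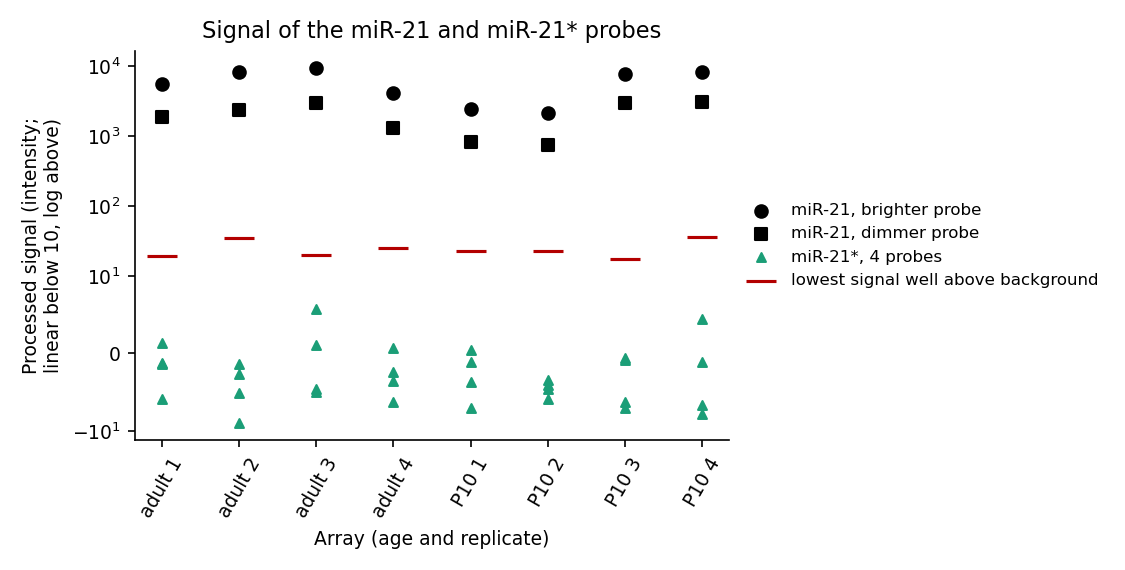
Processed signal (vertical axis, intensity, linear below 10 and logarithmic above) on each adult and P10 array (horizontal axis) for the 2 probes of miR-21 in black, the 4 probes of miR-21* in green and the lowest signal well above background in red. Every miR-21 point lies above the red line of its array and every miR-21* point lies below it.

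The level of miR-21 did not pass the test between the ages. Each array was scaled to the 75th percentile named above, and levels are log2 of that scaled signal. MiR-21 lay at 2.05, 2.54, 2.47 and 1.69 on adult replicates 1 to 4, against 2.64, 2.29, 2.96 and 2.28 on P10 replicates 1 to 4. The ages overlapped, since adult replicates 2 and 3 were above P10 replicates 2 and 4. The highest level was that of P10 replicate 3 and the lowest that of adult replicate 4. The mean level was 2.19 ± 0.39 in adult islets and 2.54 ± 0.33 in P10 islets (SD, n = 4 each). The log2 difference, adult minus P10, was -0.35 ± 0.24 (SE), with a 95% interval from -0.91 to 0.20 and a limma adjusted p of 0.263.

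The rest of the array changed widely at the same setting. Of 238 miRNAs tested, 47.5% passed an adjusted p of 0.05 (limma with Benjamini-Hochberg adjustment), 20.2% as lower and 27.3% as higher in adult, with a median log2 difference of -0.01. MiR-21 was the 75th lowest of the 238 differences. Among the 24 brightest tested miRNAs, 13 passed as higher and 1 as lower in adult, with a median log2 difference of 0.43. MiR-21 had the second lowest difference of these 24. The size for miR-21 varied with the arrays kept: it was -0.19 without adult replicate 4, -0.22 without P10 replicate 3 and -0.05 without both. These 2 arrays were chosen as the lowest adult and the highest P10 level of miR-21, so leaving them out had to shrink the difference. The difference was larger, at -0.47 without adult replicate 2 and -0.44 without P10 replicate 4.

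The second probe of miR-21 gave a larger difference. On this dimmer probe the level was 0.45, 0.74, 0.82 and 0.00 on adult replicates 1 to 4 (log2 of the scaled signal), against 1.09, 0.76, 1.57 and 0.89 on P10 replicates 1 to 4. The order of the arrays within each age was nearly that of the brighter probe, with adult replicate 4 lowest and P10 replicate 3 highest. Adult replicate 3 still lay above P10 replicate 2. The log2 difference was -0.57, with a limma adjusted p of 0.0855.

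The gap between the probes, brighter minus dimmer within each array, does not depend on scaling by 1 factor per array. It was 1.60, 1.80, 1.65 and 1.69 on the log2 scale on adult replicates 1 to 4, against 1.55, 1.53, 1.39 and 1.40 on P10 replicates 1 to 4. The ages did not overlap, and the mean gap was 0.22 wider in adult islets (two-sided exact permutation p = 0.0286, the lowest that 70 splits can give). A gap without overlap was common: 35.7% of the 112 tested miRNAs with 2 probes above background on all arrays had one. The gap was wider in adult islets for 89 of these 112, so the direction was common too. The median size of the change in gap was 0.09 over the 112, and 20 changed more than miR-21.

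**Figure D2:**
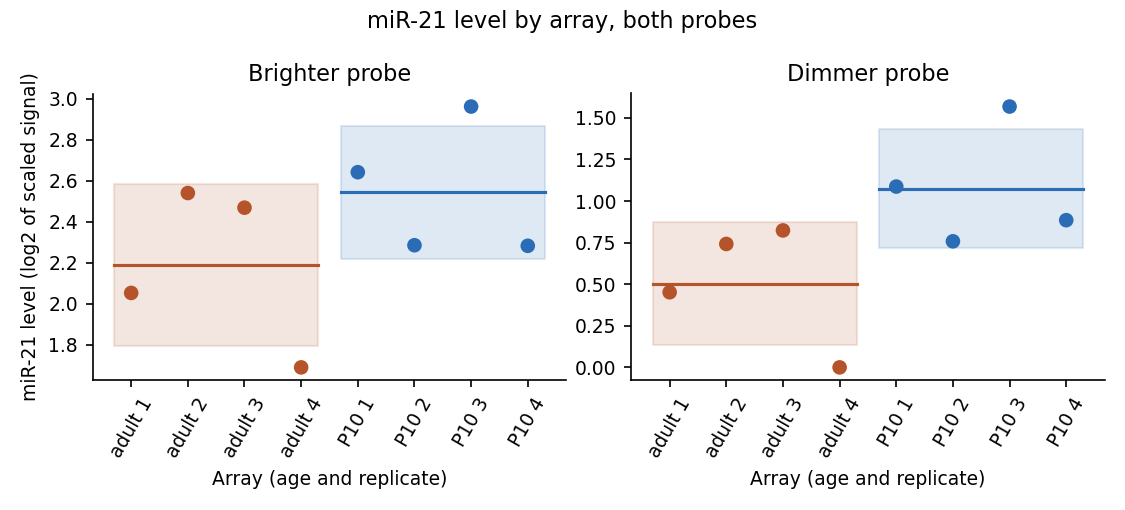
Level of miR-21 (vertical axes, log2 of the scaled signal) on each adult and P10 array (horizontal axis) for its brighter and its dimmer probe, with the mean of each age as a line and 1 SD as a band. Adult replicate 4 is lowest and P10 replicate 3 highest on both probes, and the ages overlap on both.

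Among the 677 miRNAs of an array, miR-21 held a dimmer rank in adult islets, and the ages did not overlap. Ranks use the total gene signal, the scanner software's sum over the probes of a miRNA, and need no scaling between arrays. MiR-21 ranked 19, 16, 17 and 25 on adult replicates 1 to 4, against 8, 13, 6 and 12 on P10 replicates 1 to 4. Its mean rank was 19.3 ± 4.0 in adult islets and 9.75 ± 3.30 in P10 islets (SD, n = 4 each), a fall of 9.5 places (two-sided exact permutation p = 0.0286, the lowest that 70 splits can give). Without adult replicate 4 this p was 0.0571. By the brighter probe alone the difference was 7.5 places, with an exact p of 0.0571, as adult replicate 2 and P10 replicate 2 then shared rank 13. Of the 238 tested miRNAs, 45.8% had ranks without overlap, and 19.7% had them on the dimmer side in adult, as miR-21 did. A rank orders brightness and not numbers of molecules, since probes differ in how well they bind.

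Some miRNAs changed place with miR-21. On all 4 adult arrays 15 miRNAs were brighter than miR-21, and of these 3, let-7a, let-7c and let-7f, were brighter on all 8 arrays. Another 6 were brighter than miR-21 on all 4 adult arrays and dimmer on all 4 P10 arrays: miR-29a, miR-29b, miR-29c, miR-27b, miR-24 and miR-22. None made the opposite move. MiR-29b, of a family known to repress collagen and other matrix genes, held rank 2 on every adult array and ranks 21 to 49 on the P10 arrays. MiR-29a ranked 4 to 5 on adult arrays, against 20 to 30 on P10 arrays. The log2 differences of the 6 in level, adult minus P10, ran from 0.91 for miR-27b (limma adjusted p = 0.000232) to 3.59 for miR-29b (adjusted p = 1.63e-05). The 6 were picked by their place against miR-21 on these same arrays, so these p-values are no separate support.

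**Figure D3:**
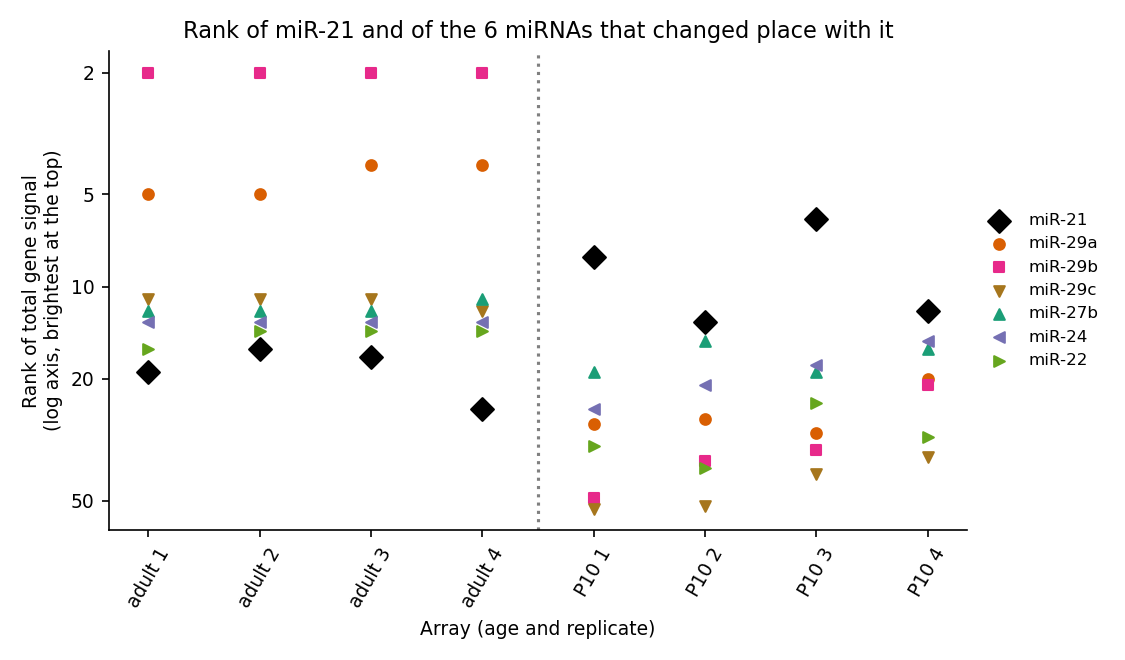
Rank of total gene signal (vertical axis, logarithmic, brightest at the top) on each adult and P10 array (horizontal axis) for miR-21, drawn as large black diamonds, and for the 6 miRNAs that changed place with it. MiR-21 lies below all 6 on the adult arrays, at ranks 16 to 25, and above all 6 on the P10 arrays, at ranks 6 to 13.

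The miRNAs next to miR-21 in mean rank moved differently from each other. Just above it were let-7b, miR-141 and miR-26a, miR-27b was level with it at a mean rank of 14.5, and just below it were miR-16 and miR-29a. MiR-16, known for restraining the cell cycle, ranked 17 to 21 on adult arrays and 10 to 13 on P10 arrays, much as miR-21 did. Its level was lower in adult by a log2 difference of -0.33 (limma adjusted p = 0.0242), a size close to that of miR-21 but with less spread between arrays (SD 0.07 in adult and 0.08 in P10). The difference of miR-16 turned positive, and did not pass, with the percentile over all probes, without scaling and with spike-in scaling. MiR-141, of the epithelial miR-200 family, stood at 0.47 (adjusted p = 0.00926), a sign that turned with 4 other normalizations. The differences of let-7b and miR-26a were 0.17 and 0.20, and neither passed here.

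As a share of all detected signal, miR-21 made up 1.43%, 2.00%, 1.90% and 1.11% on adult replicates 1 to 4, against 2.77%, 2.19%, 3.84% and 2.56% on P10 replicates 1 to 4. Every adult share was below every P10 share, with adult replicate 2 and P10 replicate 2 the closest. This holds for the total gene signal: with the brighter probe set against the same sum, adult replicate 2 lay just above P10 replicate 2 and the ages overlapped. The mean share was 1.61% ± 0.42 in adult islets and 2.84% ± 0.71 in P10 islets (SD, n = 4 each; two-sided exact permutation p = 0.0286, the lowest that 70 splits can give). How many of the tested miRNAs had shares without overlap was not counted. For ranks by the same signal it was 45.8%, with 19.7% on the dimmer side in adult. With levels scaled to the summed signal, 34.5% of the tested miRNAs passed as lower in adult by limma. Array-level permutation tests were made of 4 values of miR-21, of which only the test of the rank was planned. The Benjamini-Hochberg adjusted exact p was 0.0381 for the probe gap, the rank and the share, and 0.257 for the level. All 4 values come from the same signals, and the adjustment does not cover the choice of these measures. A share falls when other miRNAs rise, so it does not show fewer copies of miR-21. In these bulk samples, fewer cells of a type and less RNA per cell cannot be told apart.

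Whether miR-21 was called lower depended on the normalization. In the authors' value table, a deposited set of log2 values with 1 shared distribution for all arrays, miR-21 stood at 11.68, 11.96, 11.84 and 11.24 on adult replicates 1 to 4. On P10 replicates 1 to 4 it stood at 12.85, 12.28, 13.11 and 12.37 in that table, so the ages did not overlap. The share of tested miRNAs without overlap in that table was not counted. With the scaling used here it was 45.8%. In the authors' value table the log2 difference of miR-21 was -0.97 ± 0.24 (SE), with a limma adjusted p of 0.0111. Of the 238 miRNAs, 42.9% passed there, 18.1% as lower in adult.

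Of the other settings that bend the scale along brightness, quantile normalization and cyclic loess on bright probes gave values near this one, and cyclic loess over all probes did not. Quantile normalization gave -0.94 (limma adjusted p = 0.0211), with 43.3% of miRNAs called and 20.2% called lower. Cyclic loess on bright probes gave -0.91 (adjusted p = 0.0153), with 48.3% called and 18.5% called lower. Cyclic loess over all probes gave -0.19 (adjusted p = 0.49), with overlapping ages. Scaling to the summed signal, chosen after seeing the data, gave -0.74 (adjusted p = 0.04), with 47.1% called and 34.5% called lower. The sign was positive, and did not pass, with the percentile over all probes (0.11, adjusted p = 0.795), without scaling (0.61, adjusted p = 0.33) and with spike-in scaling (0.68, adjusted p = 0.318).

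The median difference of all tested miRNAs also moved with the scaling, so miR-21 was set against it. The medians moved to 0.45 with the percentile over all probes, 0.94 without scaling and 1.01 with spike-in scaling. Relative to the median of its own setting, miR-21 stood at -0.34 with the scaling used here and at -0.33 in each of these 3. It stood at -1.05 with quantile normalization, -1.15 with cyclic loess on bright probes and -1.12 in the authors' value table. With normexp background correction it stood at -0.02 relative to a median of -0.28. MiR-21 was above the median of the tested miRNAs in 0 of the 32 alternatives run, but these are not independent. Scaling by 1 factor per array moves miR-21 and the median nearly alike, and changes of filter, floor or block left miR-21 at -0.35. Relative to the median it stood at -0.04 with array weights and at -0.01 without adult replicate 4 and P10 replicate 3.

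**Figure D4:**
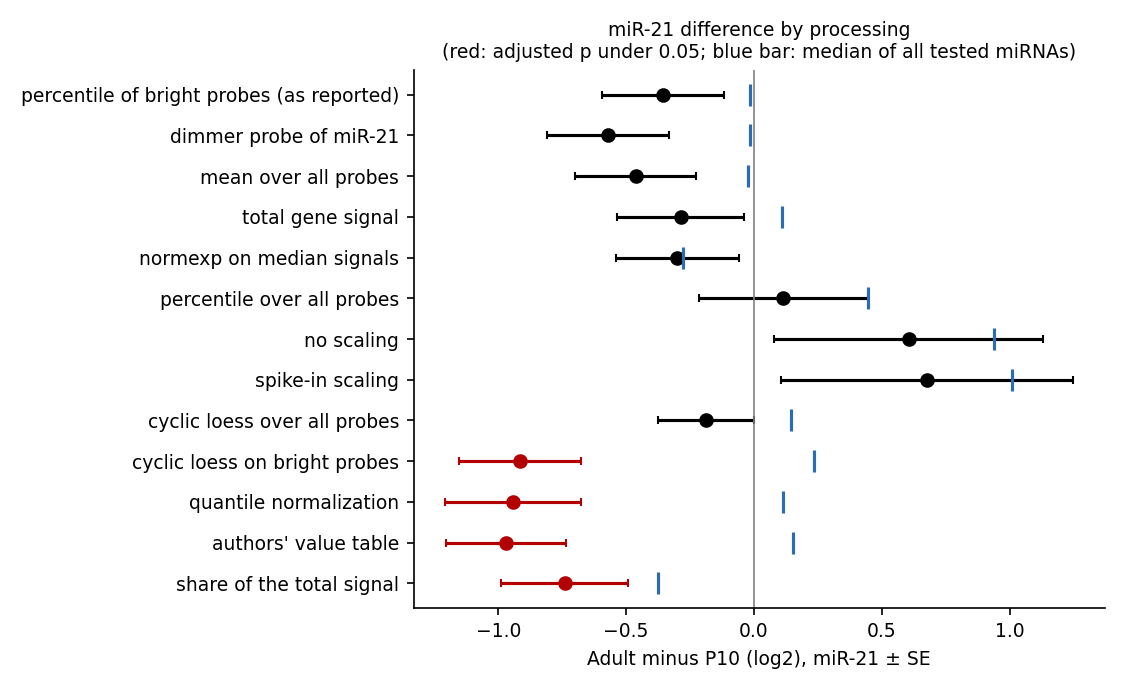
Log2 difference of miR-21, adult minus P10 (horizontal axis, points with SE bars), under each normalization (vertical axis), with the median of all tested miRNAs as a blue bar. Red marks the 4 settings with an adjusted p under 0.05, at -0.97 to -0.74, and the point lies left of the blue bar in every setting shown.

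The miRNAs whose levels were most like that of miR-21 over the 8 arrays were miR-192, miR-28, miR-194, miR-31* and miR-203. Pearson's r with miR-21 was 0.79 for miR-192, 0.76 for miR-28, 0.74 for miR-194, 0.74 for miR-31* and 0.67 for miR-203. They are the highest of 237 correlations over 8 arrays that share slide and scaling, so they are given as a description. Without adult replicate 4 and P10 replicate 3, the arrays farthest from the median of miR-21, r was 0.50 for miR-192 and 0.71 for miR-31*, and lower for the others. MiR-192 and miR-194, neighbours in the genome known from gut, liver and kidney epithelium, also followed miR-21 within each age. Their r was 0.94 and 0.95 over the 4 adult arrays and 0.96 and 0.95 over the 4 P10 arrays. This was not particular to them. Over the adult and the P10 arrays, r was 0.96 and 0.996 for miR-31*, 0.84 and 0.92 for miR-28, and 0.47 and 0.97 for miR-203.

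MiR-192 lay at -2.0, -1.77, -1.53 and -2.52 on adult replicates 1 to 4 (log2 of the scaled signal), against 1.63, -0.81, 2.46 and 0.01 on P10 replicates 1 to 4. Its highest values were those of P10 replicates 3 and 1, which also had the highest miR-21, and its lowest was that of adult replicate 4, as for miR-21. MiR-31* lay at -4.07, -3.98, -4.02 and -4.10 on adult replicates 1 to 4, against -3.72, -4.24, -3.10 and -4.21 on P10 replicates 1 to 4. Only P10 replicates 1 and 3 stood clear of the other arrays. MiR-203, known from skin epithelium, was at the floor on adult replicates 1, 2 and 4 and at -1.68, -2.98, -1.14 and -3.43 on P10 replicates 1 to 4. P10 replicates 1 and 3 were again the highest.

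**Figure D5:**
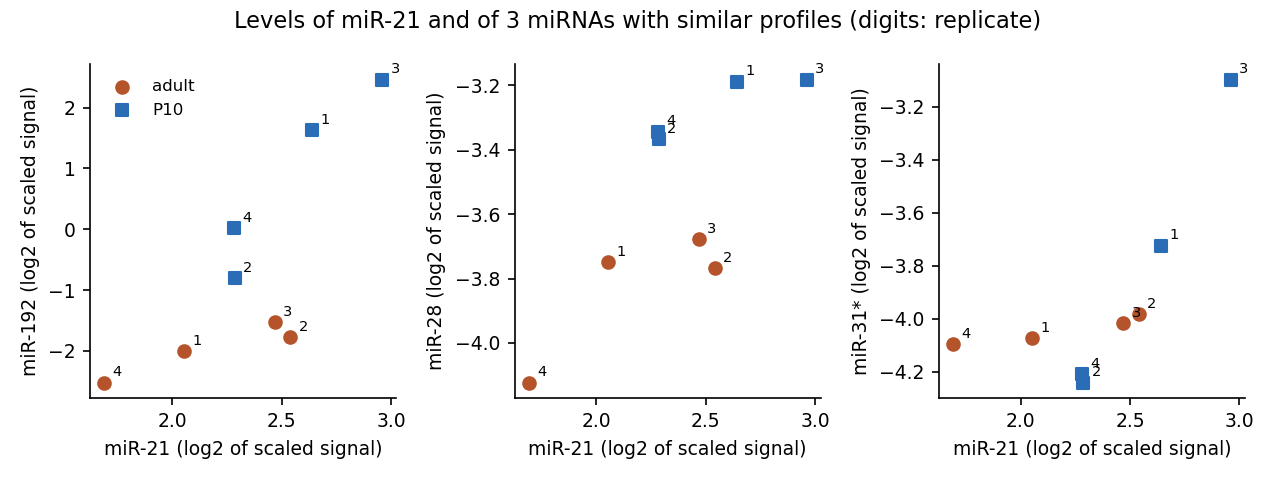
Level of miR-192, miR-28 and miR-31* (vertical axes, log2 of the scaled signal) against that of miR-21 (horizontal axes) on the 4 adult arrays (circles) and the 4 P10 arrays (squares), with the replicate number beside each point. P10 replicates 1 and 3 lie at the upper right for all 3, and the adult arrays lie below the P10 arrays for miR-192 and miR-28.

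After the mean of each age was taken out, miR-28 (0.84), miR-192 (0.78), miR-194 (0.74), miR-31* (0.70) and the erythroid miR-451 (0.70) were the most alike. The lowest correlations were those of miR-374 (-0.86), miR-185 (-0.81) and miR-325-5p (-0.80). Over the values themselves the lowest were miR-3546 (-0.84), miR-154 (-0.74) and miR-483* (-0.71). MiR-3546 and miR-325-5p were at the floor on 3 P10 arrays.

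Marker lists of other cell types were set beside miR-21, with the background of 47.5% called. All 3 gut epithelium markers, miR-192, miR-194 and miR-215, passed as lower in adult, and their summed level (log2) ranged from -1.83 to -0.98 on adult arrays and from 0.14 to 3.75 on P10 arrays. That sum had a correlation of 0.76 with miR-21, it was highest on P10 replicates 3 and 1, and miR-215 was at background on every adult array. MiR-192 and miR-194 were among the most alike miRNAs above, so this correlation is not separate from theirs. The sums of the other lists, here and below, had correlations with miR-21 of -0.54 to 0.21. MiR-192 did not pass without scaling (limma adjusted p = 0.0912), with spike-in scaling (0.114), with cyclic loess over all probes (0.189) or with no filter (0.0783), and miR-194 did not pass with spike-in scaling (0.0599). The part of these markers in the level of miR-21 was not tested.

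None of the 5 tested leukocyte markers passed, and their sum ranged from 0.68 to 0.99 on adult arrays and from -0.01 to 2.03 on P10 arrays. The highest leukocyte sum was that of P10 replicate 4. MiR-142-3p, a marker of blood cells, lay at 1.36 there, against -2.22 to -1.67 on the other P10 arrays. Of 7 mesenchymal markers 3 passed as higher and 3 as lower in adult, with sums of 2.68 to 3.12 on adult arrays and 2.25 to 3.04 on P10 arrays. None of the 2 endothelial markers passed, with sums of 1.55 to 1.73 on adult arrays and 1.23 to 2.23 on P10 arrays. None of the 3 acinar markers passed, with sums of -2.12 to -1.12 on adult arrays and -3.92 to -0.06 on P10 arrays. The ages overlapped in the sums of these lists, leukocyte, mesenchymal, endothelial and acinar. The 2 erythroid markers passed as higher, with sums of -2.0 to -0.62 on adult arrays and -2.77 to -1.98 on P10 arrays. Their sums overlapped as well, since adult replicate 4 lay at -2.001 and P10 replicate 3 at -1.982. Of 6 islet endocrine markers 5 were tested and all 5 passed as higher, though the sign of miR-375 turned, without passing, with quantile normalization, with cyclic loess on bright probes and in the authors' value table. Their sums were 5.46 to 5.65 on adult arrays and 3.57 to 4.70 on P10 arrays. The part of these cell types in the level of miR-21 was not tested.

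MiRNAs known to be induced with miR-21 by cytokines or inflammatory signals were also listed, a list chosen with earlier results of these data known. Of 11 listed, 10 were on the array and tested, 5 passed as higher in adult and none as lower, beside 27.3% higher and 20.2% lower over all tested. Their median log2 difference was 0.41, against -0.01 over all tested. The 5 were miR-29a, miR-29b, miR-29c, miR-30b-5p (0.62) and miR-132, the last above background on 2 of 4 P10 arrays. MiR-146a, also in the leukocyte list and a target of NF-kappaB that damps inflammatory signalling, stood at 0.21 (limma adjusted p = 0.384). MiR-34a, a target of p53, stood at -0.05 (adjusted p = 0.942), and miR-155 had no probe on this array under that name.

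Of 6 tested miRNAs often named with miR-21 in fibrosis, 3 passed each way, beside 27.3% higher and 20.2% lower over all tested. The 3 members of the miR-29 family passed as higher in adult. MiR-199a-5p (-1.75), miR-199a-3p (-1.62) and miR-214 (-1.64), which come from a shared transcript and are also in the mesenchymal list, passed as lower in adult. The ages did not overlap for any of the 6, as was true of 45.8% of the tested miRNAs. The correlation with miR-21 was 0.56 to 0.60 for these last 3 miRNAs over the 8 arrays and -0.54 to -0.48 for the miR-29 family.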

How the data were processed

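The deposited scanner files hold intensity values of cyanine 3 labelled total RNA on 1-colour Agilent miRNA arrays, extracted with Feature Extraction 10.7.3.1 and already background-subtracted, per the file headers. The authors' value table holds 1 log2 value for each of 311 miRNAs and array. The sources used here do not give how it was made.

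Features marked as outliers were left out and the rest averaged per probe. Signals were scaled by array (75th percentile of 278 probes) and raised to a common floor (-5.51 on the log2 scale). Each miRNA took its brightest probe. For testing, a miRNA had to clear background on 4 or more of the 8 arrays, which 238 did. The test was limma 3.58.1 in R 4.3.3, without a block, with Benjamini-Hochberg adjustment at 0.05. Single values were tested with exact permutation tests. Alternatives changed the normalization, the filter and floor, the choice of signal or probe, the limma model and the arrays included. The limma step was tested on simulated data. The number of arrays limits the precision, and no non-control feature was saturated (0 features).

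Named were both arms, the 5 most and 3 least correlated miRNAs, the 3 neighbours in mean rank on each side, and fixed lists. The members, lists and alternatives were chosen with earlier results of these data known. MiR-216b was matched to miR-216b-5p. The pairing of the arms by structure used ViennaRNA 2.7.2. The planned test of unequal change of the arms and the rank of miR-21* were not run, since miR-21* stayed at background.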

Additional observations from a re-analysis of the deposited data

Results flagged for a closer look

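No level, rank or probe gap of miR-21 had 1 array standing apart from the other 3 of its age by Dixon's test. The other miRNAs examined were the tested ones among the correlated miRNAs, the neighbours in mean rank and the lists. Each was examined at both ages, and 10 of these miRNAs had such an array. Let-7a, let-7c, let-7f, miR-24 and miR-22 were not examined. Chance gives about 1 in 20 groups, so part of the 10 may be chance. Values are log2 of the scaled signal. On adult replicate 4, the array with the lowest miR-21, miR-451 (-2.13), miR-143 (2.13) and miR-195 (-0.49) stood below the other adult arrays. On P10 replicate 4 miR-142-3p (1.36) and miR-142-5p (-2.07) stood above the other P10 arrays. On P10 replicate 3, the array with the highest miR-21, miR-154 (-2.13) stood below the others. On adult replicate 1 miR-132 (-3.29) stood below the others. MiR-203 on adult replicate 3 (-5.32) and miR-3546 (-4.33) and miR-325-5p (-5.44) on P10 replicate 4 stood above arrays that were all at the floor, as miR-142-5p did. For these the test could only mark the array, since the other 3 shared the floor value.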

How the results depend on the processing

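Of 32 alternatives for miR-21, 29 gave a negative and 3 a positive difference, and 4 passed the threshold: quantile normalization (-0.94), cyclic loess on bright probes (-0.91), the authors' value table (-0.97) and the summed signal (-0.74). Without any 1 array it was -0.47 to -0.19, and none passed. Array weights gave -0.09. The fall in rank was 7.58 to 10.58 places without any 1 array and 7.5 by the brightest probe. The number of miRNAs called, 113, was 34 with cyclic loess over all probes, 75 without scaling, 62 with spike-in scaling, 179 with array weights, 182 with P10 replicates 1 and 2 alone, and 84 to 138 without any 1 array. The split of 48 lower and 65 higher in adult became 22 and 12 with cyclic loess over all probes, 17 and 58 without scaling, 34 and 90 under the percentile over all probes, 9 and 53 with spike-in scaling, 47 and 33 with normexp, and 82 and 30 with the summed signal. With the replicate block, miR-21 stayed at -0.35 (limma adjusted p = 0.209) and 95 miRNAs were called. Same-numbered deviations correlated at -0.23 to 0.48, and 2 of 4 adult arrays correlated best with their own number, so the numbers were not taken as pairs. The alternatives planned for miR-21* and for the arms' unequal change were not run, since miR-21* has no level, and the scanner software's detection call also found it on 0 arrays. The cause was not tested.

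Over 1487 results of alternatives for the other named miRNAs, 1280 kept call and direction, 132 lost the call, 50 gained one and 25 turned sign, where either setting had a call. The turned signs follow. Without scaling and with spike-in scaling they were miR-28 (0.40 and 0.47), miR-16 (0.63 and 0.71) and miR-34a (0.91 and 0.98), and miR-16 also turned with the percentile over all probes (0.14). With quantile normalization, cyclic loess on bright probes and the authors' value table they were miR-141 (-0.33, -0.20 and -0.16), miR-26a (-0.43, -0.37 and -0.49) and miR-375 (-0.30, -0.28 and -0.41). MiR-141 also turned with cyclic loess over all probes (-0.20), and let-7b in the authors' value table (-0.51). With normexp they were miR-325-5p (-0.18) and miR-144 (-0.28). With P10 replicates 1 and 2 alone they were miR-126* (0.34) and miR-216a (-1.58), and with replicates 3 and 4 alone miR-216b-5p (1.02), miR-34a (0.64) and miR-101a (0.46).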
